A study of Mus musculus with 4 samples.

Results

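The epithelial lineage transcription factors described here are 10 genes whose proteins direct stem cells of the small intestine into its cell types or keep intestinal identity. They were chosen by name: Gfi1b, Hmx2, Pou2f3, Spdef, Atoh1, Sox9, Klf4, Cdx1, Cdx2 and Onecut2. A probe was matched through gene symbols and their synonyms for 9 of the 10, each by 1 probe, out of 16390 genes named on the array. Atoh1 had no matched probe and is not analysed here.

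Expression was measured on 1 array for each of 4 samples of sorted mouse small intestinal cells. All mice were male and carried 1 Dclk1CreERT2 allele, a tamoxifen-dependent Cre recombinase placed in the Dclk1 gene, so the controls carry it too. Dclk1- normal cells came from 1 mouse and Dclk1+ normal cells from 2 pooled mice, all of genotype Dclk1CreERT2/+ and aged 26 weeks. Tumor cells came from Dclk1CreERT2/+; ApcMin/+ mice, which form intestinal tumors: Dclk1- tumor cells from 1 mouse of 17 weeks and Dclk1+ tumor cells from 7 pooled mice aged over 16 weeks. Dclk1+ tumor cells were sorted as cells expressing GFP; no source used here gives the gates of the remaining samples. With 1 array per group there is no replicate check, so no test was made and every difference is between arrays.

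New cells of the small intestine arise from stem cells in the crypts, and Notch signalling separates absorptive from secretory fates. Secretory cells depend on Atoh1, goblet cells then on Spdef, and tuft cells, the chemosensory cells that Dclk1 marks in mouse, on Pou2f3. Cdx1 and Cdx2 hold the intestinal programme in place along the whole lineage, and Klf4 is a factor of differentiated and goblet cells.

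Levels are given as the intensity in the authors' deposited table, a linear scale on which the median listed probe of each array is close to 25 (24.99 to 25.01). Differences are log2 differences on a separate scale, computed from the scanner values after background correction with an offset of 50 and quantile normalisation. The offset compresses differences of dim genes. A gene counts as higher or lower where the arrays differ 2-fold or more and it is above background (the mean of the blank spots plus 2 SD) on at least 1 of them. Levels are compared within a gene only, since each probe has its own brightness.

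Of the 16390 genes, 10914 to 12073 were above background on each array. Dclk1 itself had an intensity of 180 in Dclk1- normal and 736 in Dclk1+ normal, against 9.49 in Dclk1- tumor and 61.8 in Dclk1+ tumor. It was brighter in the Dclk1+ sample of each tissue, but the library labelled Dclk1- normal lay above the one labelled Dclk1+ tumor. On the log2 scale the normal samples were more than 2-fold apart and the tumor samples under 2-fold, so Dclk1 counts as higher in normal only. Of 14 tuft cell markers, 13 were higher in Dclk1+ than in Dclk1- tumor cells and all 14 in the normal pair. Epcam, a marker of epithelium, was above background on all 4 arrays, with intensities from 850 to 3416. The tissues also differed in genotype and age, which cannot be told apart from the tumor in any comparison of tumor with normal.

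RefSeq promoter windows on GRCm38.p6, the 250 bases before each transcription start, were used for 6 of the 10 members only. Those of Gfi1b and Hmx2 are shown because these genes stood apart by the largest amounts between Dclk1+ and Dclk1- cells, and that of Cdx2 because it holds an octamer, the recognition letters of POU factors such as Pou2f3. Capitals mark motif matches, and sequences run 5′ to 3′ on the gene's strand. The Gfi1b window is chr2:28621983-28622232 (minus strand), that of the first Hmx2 start chr7:131548507-131548756 (plus strand) and that of Cdx2 chr5:147307250-147307499 (minus strand).
Gfi1b: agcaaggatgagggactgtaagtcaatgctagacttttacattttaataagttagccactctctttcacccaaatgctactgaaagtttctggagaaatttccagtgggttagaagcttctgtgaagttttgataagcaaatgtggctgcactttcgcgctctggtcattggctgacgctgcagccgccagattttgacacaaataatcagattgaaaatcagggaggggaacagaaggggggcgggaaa
Hmx2: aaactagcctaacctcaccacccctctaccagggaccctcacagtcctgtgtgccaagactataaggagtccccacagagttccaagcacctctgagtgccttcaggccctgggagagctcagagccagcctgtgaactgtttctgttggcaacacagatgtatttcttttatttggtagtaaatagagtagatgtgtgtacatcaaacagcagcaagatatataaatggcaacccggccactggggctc
Cdx2: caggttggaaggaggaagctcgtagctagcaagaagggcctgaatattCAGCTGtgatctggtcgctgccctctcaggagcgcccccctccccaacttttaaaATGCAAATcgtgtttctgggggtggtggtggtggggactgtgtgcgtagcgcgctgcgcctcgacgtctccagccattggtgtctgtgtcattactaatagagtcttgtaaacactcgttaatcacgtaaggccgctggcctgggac

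Both strands were searched for 6 motifs: the octamer ATGCAAAT, the E-box CAGCTG, a Gfi core AAATCNC, a Cdx core TTTATNG, a Tcf/Lef core CTTTGAT and a Hes N-box CACNAG. In the Cdx2 window the octamer lay 147 to 140 bases before the start, and the E-box 202 to 197 bases before it. The octamer is in 1.6% and the E-box in 13% of all 32851 windows of this length. The Klf4 window also held the E-box and the Atoh1 window the Tcf/Lef core, which is in 3.21% of windows. The windows of Gfi1b, Spdef and both Hmx2 starts held none of the 6, among which the Gfi core is in 10.3%, the Cdx core in 9.81% and the Hes N-box in 36.7% of all windows. A match describes letters and is no evidence of binding, and a window without one says only that these letters are not in it.

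**Figure D1:**
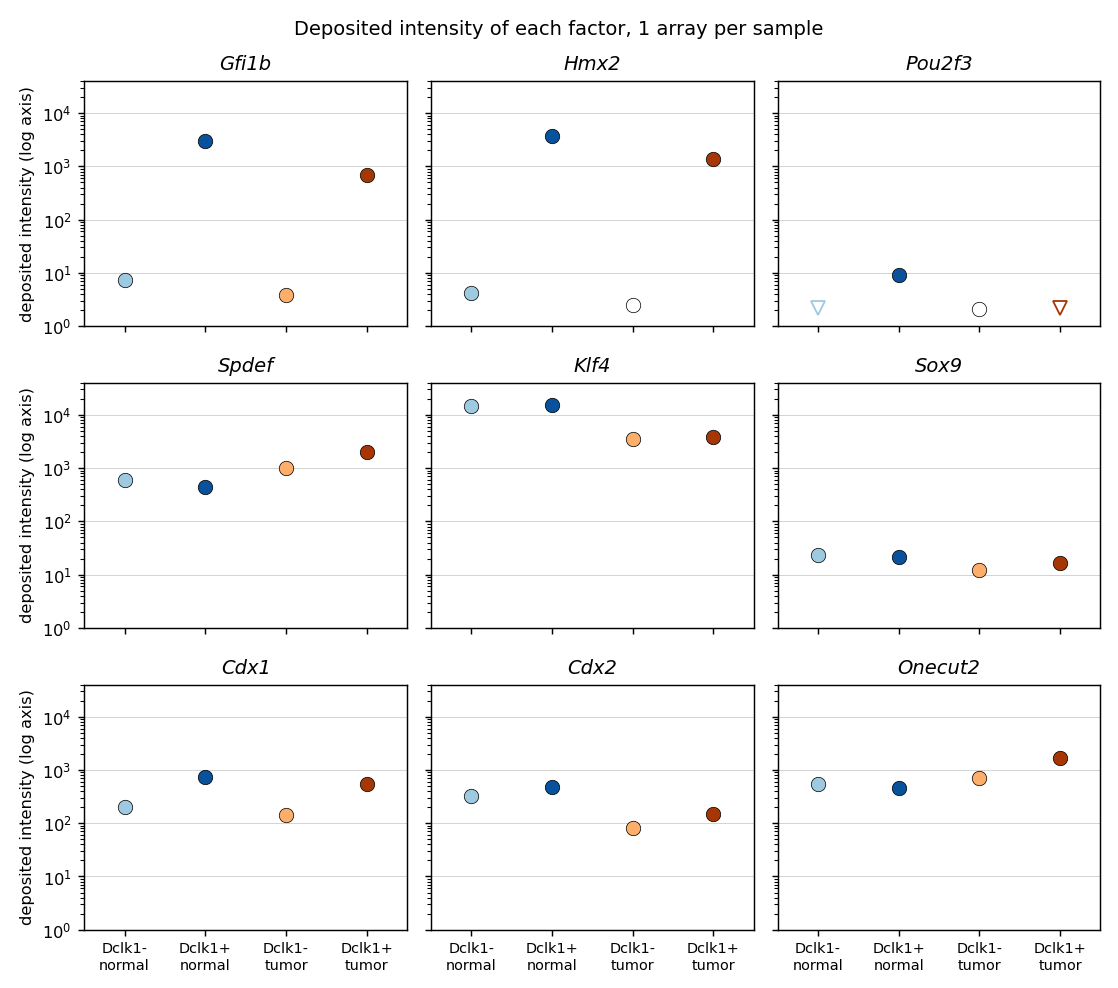
Intensity in the authors' deposited table (log axis) of the 9 factors with a probe in the 4 samples, 1 point per array. Open circles are listed but not above background, open triangles are not listed and drawn at the array's lowest listed value; Gfi1b and Hmx2 are bright in both Dclk1+ samples, and Klf4 and Cdx2 in both normal samples.

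Among the tuft lineage factors, Gfi1b and Hmx2 were high in both Dclk1+ samples and close to background in both Dclk1- samples. Gfi1b is a zinc finger repressor also known from erythroid cells and megakaryocytes, and it is found in tuft cells. Its intensity was 7.2 in Dclk1- normal and 2952 in Dclk1+ normal, against 3.92 in Dclk1- tumor and 677 in Dclk1+ tumor. The log2 difference of Dclk1+ from Dclk1- cells was 3.36 in tumor and 4.89 in normal epithelium, and over the alternative settings it ran from 2.45 to 7.43 in tumor.

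Hmx2 is a homeobox factor known from the inner ear and hypothalamus, and tuft cells express it. Its intensity was 4.21 in Dclk1- normal and 3736 in Dclk1+ normal, against 2.46 in Dclk1- tumor, which is not above background, and 1353 in Dclk1+ tumor. On the main scale the tumor value of Dclk1+ cells was at least 20.2-fold higher than the dimmest signal above background in Dclk1- cells. Over the alternative settings the tumor log2 difference ran from 3.45 to 9.10. In normal epithelium the log2 difference was 5.29. Both factors separated Dclk1+ from Dclk1- samples in each tissue by far more than any other member.

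Pou2f3, the POU factor required for tuft cells, was listed at 8.94 in Dclk1+ normal and at 2.08 in Dclk1- tumor, and was not listed in the other samples. Only the Dclk1+ normal value was above background, and the log2 levels of the 4 arrays lay between 5.73 and 5.87. This probe thus had little signal to compare: the normal difference was 0.13, and in the tumor pair neither array was above background. The normal difference was 0.33 with an offset of 16 and -0.01 with local background subtracted. It passed 2-fold with plain subtraction of the blank mean (1.08) and with the authors' values (2.03). With the authors' values an unlisted probe was set to the array's lowest listed value. Under these settings Dclk1+ tumor minus Dclk1+ normal was -1.08 and -2.06. Since the Dclk1- normal probe was not above background, no exact fold is given.

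Across the set, 3 of 8 members above background were higher in Dclk1+ than in Dclk1- tumor cells (Gfi1b, Hmx2 and Cdx1) and 0 lower, where 1.77% of all 12198 genes were higher, 2.14% lower and 3.91% called in either direction. The same 3 of 9 were higher in the normal pair and 0 lower, where 5.66% of 12845 genes were higher, 5.92% lower and 11.6% called in either direction. At 4-fold, Gfi1b and Hmx2 were the 2 members past the threshold in each pair, where 0.721% of genes in tumor and 3.77% in normal were. The median log2 difference was 0.83 over the 8 members in tumor and 0.13 over the 9 in normal. That of all genes was 0.01 in both. The member sets differ by Pou2f3, whose near-blank value is the normal median, so the 2 medians are not compared. These comparisons and those of tumor with normal share arrays, so they are not independent of each other. The members were chosen with earlier results of these data known, so their shares beside those of all genes are a description only.

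**Figure D2:**
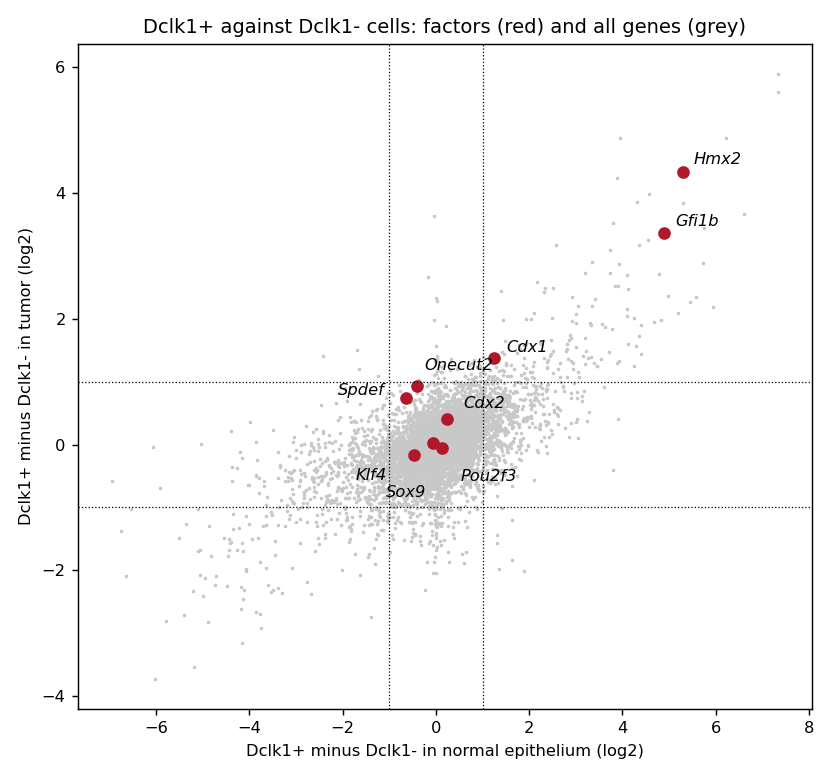
Log2 difference of Dclk1+ from Dclk1- cells in normal epithelium (horizontal axis) and in tumor (vertical axis) for the 9 factors (red, labelled) and all genes above background on at least 1 array (grey). Dotted lines mark 2-fold; Gfi1b and Hmx2 lie beyond 3 log2 units on both axes, Cdx1 just beyond 1 on both, and Spdef and Onecut2 lie above 0 in tumor and below it in normal; with local background subtracted both signs of Onecut2 turn.

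Other regulators of the tuft lineage differed less. Of 8 listed regulators above background in the tumor pair, 0 were higher and 1 lower in Dclk1+ cells: Il4ra, a receptor subunit of interleukin 4 and 13, by a log2 difference of -1.15. In the normal pair, 0 of 8 were higher and 0 lower. Ascl2, a stem cell factor, was higher in Dclk1+ tumor than in Dclk1+ normal cells, by 1.22. Cbfa2t3, a corepressor of the secretory lineage list, had an intensity of 176 in Dclk1+ normal and 17.7 in Dclk1- normal, a difference of 1.40, and its intensity in Dclk1+ tumor was 22.5.

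Gfi1b, also known in erythroid cells and megakaryocytes, was set against markers of those cells, of which 9 of 12 had a probe. Their summed intensity was 333 in Dclk1- normal and 431 in Dclk1+ normal, against 775 in Dclk1- tumor and 368 in Dclk1+ tumor. Of 7 above background in the tumor pair, 0 were higher and 1 lower in Dclk1+ cells (Pf4, a platelet chemokine, by -1.87), and 0 of 7 differed 2-fold in the normal pair. Itga2b and Tal1 were not above background on any array. Ptprc, the leukocyte antigen CD45 that tuft cells also express, had an intensity of 6.13 in Dclk1- normal and 168 in Dclk1+ normal. It was 14.8 in Dclk1- tumor and 70.5 in Dclk1+ tumor. Like Gfi1b it was brighter in the Dclk1+ sample of each tissue. In tumor its log2 levels were 6.74 in Dclk1+ and 6.05 in Dclk1- cells, under 2-fold apart. Between the Dclk1- samples Ptprc was brighter in tumor, by under 2-fold on the log2 scale (6.05 in tumor, 5.83 in normal). Gfi1b was close to background in both, with a tumor minus normal log2 difference of -0.03, so no direction is read from it. Of the myeloid markers, which include Ptprc, 0 of 11 were higher and 4 lower in Dclk1+ cells of the tumor pair. In the normal pair 3 of 10 were higher and 0 lower. The part of Ptprc in the Gfi1b difference was not tested.

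In Dclk1+ cells, Gfi1b was lower in tumor than in normal by a log2 difference of -1.56, and Hmx2 by -0.96, just under 2-fold; with median scaling, 75th percentile scaling or the authors' values Hmx2 passed it (-1.27 to -1.47). Of the 14 tuft markers, 9 were likewise lower and 1 higher there, with a median of -1.55, against -0.03 over all genes. In a bulk sample, fewer cells of a type and less RNA per cell cannot be told apart. The summed intensity of the 14 markers was 3136 in Dclk1- normal and 148996 in Dclk1+ normal, against 2378 in Dclk1- tumor and 38930 in Dclk1+ tumor.

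Spdef is an ETS factor required for goblet and Paneth cell maturation. Its intensity was 609 in Dclk1- normal and 436 in Dclk1+ normal, against 1022 in Dclk1- tumor and 2053 in Dclk1+ tumor. Both tumor samples lay above both normal samples. The Dclk1+ tumor sample exceeded the Dclk1+ normal one by a log2 difference of 2.36, more than 4-fold, and the Dclk1- tumor sample the Dclk1- normal one by 1.00, a fold of 1.99 that falls short of the call and passes it under other background corrections (1.05 to 1.44). Between Dclk1+ and Dclk1- cells the difference was 0.73 in tumor and -0.63 in normal.

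Goblet genes linked to Spdef were counted beside it. In the normal pair 0 of 11 were higher and 8 lower in Dclk1+ cells, with a median of -2.42 against 0.01 over all genes; the furthest were Clca1 (-6.76), Agr2 (-6.06), Zg16 (-5.41) and Spink4 (-5.36). In the tumor pair 4 of 11 were lower and 1 higher, Ern2, an endoplasmic reticulum stress sensor of goblet cells, by 1.40. Between Dclk1+ tumor and Dclk1+ normal cells 4 of 11 were higher and 0 lower: Agr2, a disulfide isomerase needed for mucin folding, by 6.23, Ern2 by 5.77, Spink4 by 4.48 and Galnt12 by 1.04. Between the Dclk1- samples 1 was higher, Ern2 by 1.95, and 4 were lower, Clca1 by -6.29. Spdef had more signal in tumor in both cell populations, while 4 of these genes were lower in the Dclk1- pair and 0 in the Dclk1+ pair.

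**Figure D3:**
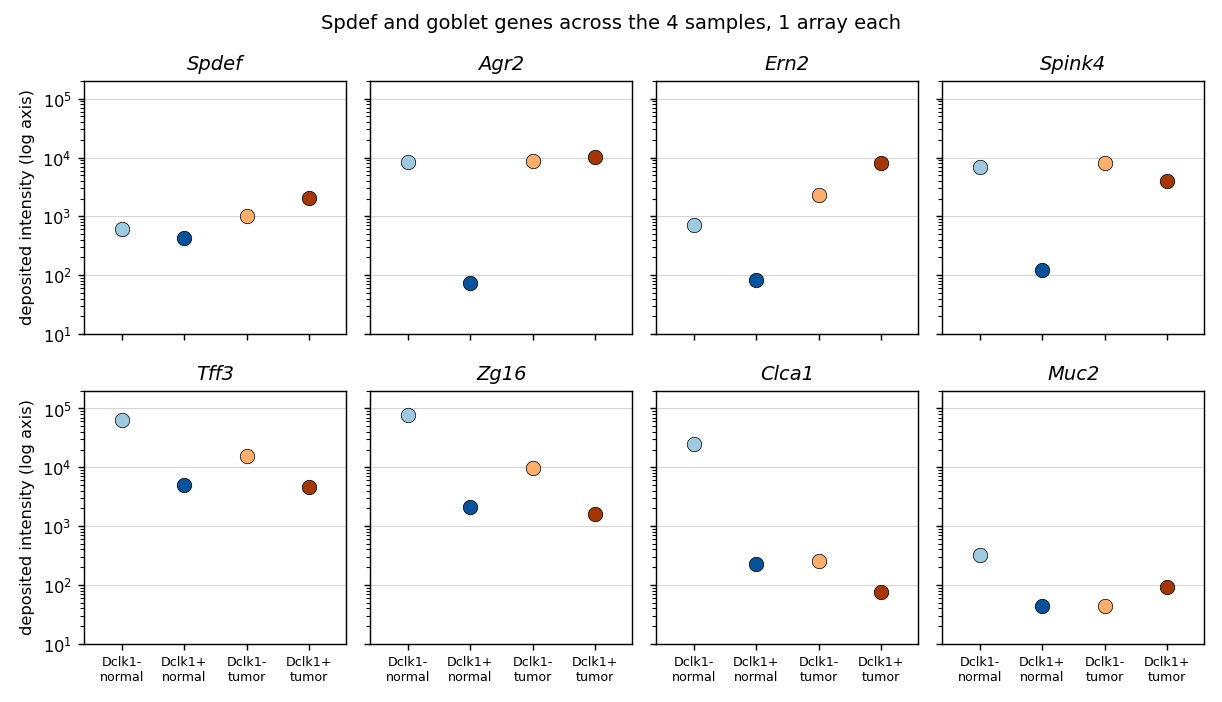
Intensity in the authors' deposited table (log axis) of Spdef and 7 goblet genes in the 4 samples, 1 point per array; brightness is read within a panel only. Agr2, Ern2, Spink4 and Spdef are dimmest in Dclk1+ normal cells, and Spdef spans 436 to 2053.

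Onecut2, a cut homeobox factor of endoderm-derived tissues, followed the same order of samples. Its intensity was 536 in Dclk1- normal and 463 in Dclk1+ normal, against 719 in Dclk1- tumor and 1668 in Dclk1+ tumor. On the main scale Dclk1+ tumor exceeded Dclk1+ normal by 1.99, and Dclk1+ exceeded Dclk1- cells by 0.93 in tumor but not in normal (-0.40). The brightness around the Onecut2 spot was 98.1% of the spot's own in Dclk1+ tumor and 63.6% in Dclk1+ normal. With this local background subtracted the Dclk1+ tumor to normal difference turned to -0.82, the Dclk1+ to Dclk1- difference in tumor to -0.89 and that in normal to 1.07, so the direction for Onecut2 depends on it. Among probes with a spot brightness of at least 100, local background reached 90% of the spot for 0.969% in Dclk1- normal and 0.145% in Dclk1+ normal, against 11.9% in Dclk1- tumor and 5.24% in Dclk1+ tumor.

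**Figure D4:**
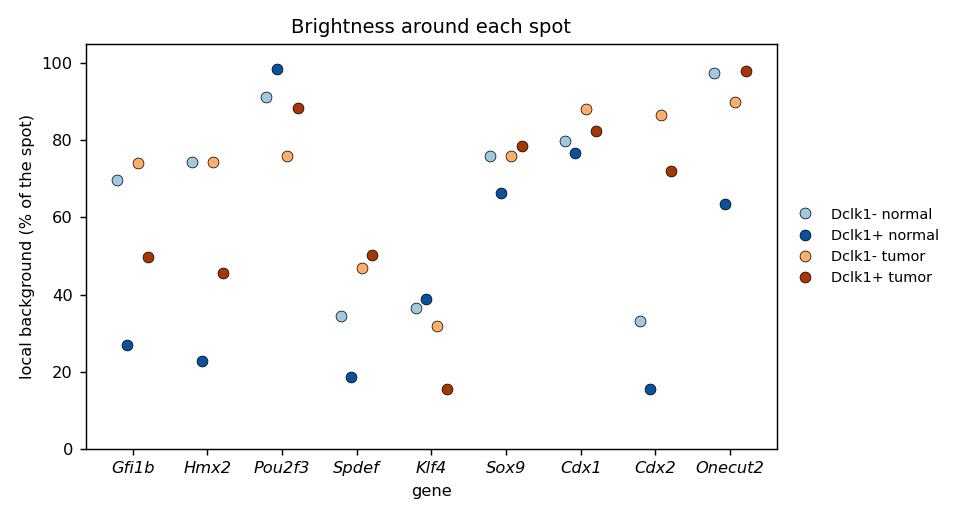
Local background as a percent of the spot's own brightness for the 9 factors, 1 point per array. Onecut2 lies at 63.6% in Dclk1+ normal and above 90% on the other arrays, Gfi1b and Hmx2 are lowest in Dclk1+ normal, and Klf4 lies between 15.6% and 38.8%.

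Klf4, a Krüppel-like factor of differentiated epithelium, had an intensity of 14655 in Dclk1- normal and 15066 in Dclk1+ normal, against 3459 in Dclk1- tumor and 3876 in Dclk1+ tumor. Both normal samples lay above both tumor samples, by a log2 difference of -1.58 (tumor minus normal) in Dclk1+ cells and -1.89 in Dclk1- cells. Dclk1+ and Dclk1- cells differed by -0.17 in tumor and -0.48 in normal, and by 0.16 and 0.04 with the authors' values. With local background subtracted the Dclk1+ difference was -0.62, below 2-fold.

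Sox9, an HMG-box factor of stem, Paneth and tuft cells, was dim and nearly level: 23.3 in Dclk1- normal and 21.1 in Dclk1+ normal, against 12.4 in Dclk1- tumor and 16.3 in Dclk1+ tumor. Its log2 differences ran from -0.12 to 0.02, with signs between Dclk1+ and Dclk1- cells that turned under other settings, within the dim range that the offset compresses; with the authors' values tumor minus normal in Dclk1- cells was -0.92, where the median of all genes was -0.45.

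Cdx1 and Cdx2 are caudal homeobox factors of intestinal identity. Cdx1 had an intensity of 206 in Dclk1- normal and 726 in Dclk1+ normal, against 145 in Dclk1- tumor and 536 in Dclk1+ tumor. Dclk1+ cells were higher in each tissue, by 1.38 in tumor and 1.24 in normal, and tumor differed from normal by -0.16 in Dclk1+ and -0.29 in Dclk1- cells. With local background, which was 76.7% to 88.3% of this spot, subtracted the differences were 0.75 in tumor and 0.73 in normal, below 2-fold.

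Cdx2 had an intensity of 330 in Dclk1- normal and 482 in Dclk1+ normal, against 82.7 in Dclk1- tumor and 148 in Dclk1+ tumor. Here the tissue separated the samples: tumor minus normal was -1.15 in Dclk1+ and -1.33 in Dclk1- cells, and Dclk1+ minus Dclk1- was 0.41 in tumor and 0.23 in normal. Cdx1 and Cdx2 therefore differed in which contrast carried the larger difference.

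Across the set, 2 of 9 members (Spdef and Onecut2) were higher and 3 (Gfi1b, Klf4 and Cdx2) lower in Dclk1+ tumor than in Dclk1+ normal cells, where 4.27% of 12869 genes were higher, 4.2% lower and 8.47% called in either direction. In Dclk1- cells 0 of 8 were higher and 2 (Klf4 and Cdx2) lower, where 5.84% of 12341 genes were higher, 5.27% lower and 11.1% called in either direction. At 4-fold 1 member remained in Dclk1+ cells, Spdef, where 1.59% of genes were past it, and 0 in Dclk1- cells, where 2.49% were. The split in Dclk1+ cells was 2 higher and 5 lower with the authors' values, under which 39% of all genes were called and their median was -0.37. Of 5 epithelial markers, 2 were lower in tumor in each population: Vil1 (-1.92) and Epcam (-1.08) in Dclk1+ cells, and Vil1 (-2.64) and Cldn7 (-1.60) in Dclk1- cells. Markers of other cell types differed as well. In Dclk1- cells 9 of 12 enterocyte and 9 of 14 enteroendocrine markers were lower in tumor and 0 higher, and 7 of 11 myeloid markers were higher and 0 lower. In Dclk1+ cells 3 of 12 enterocyte markers were lower, 1 of 10 enteroendocrine markers was higher and 1 lower, and 2 of 11 myeloid markers were higher. The summed intensity of the enterocyte markers was 106333 in Dclk1- normal and 87772 in Dclk1+ normal, against 34018 in Dclk1- tumor and 25368 in Dclk1+ tumor; that of the enteroendocrine markers was 38485 and 6677 against 721 and 1309, and that of the myeloid markers 668 and 1991 against 4779 and 2035. A sum is weighted to its brightest probes. In the normal pair 9 of 12 enterocyte markers were lower and 1 higher in Dclk1+ cells, with a median log2 difference of -2.91. The part of the markers of these cell types in the members' differences was not tested.

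**Figure D5:**
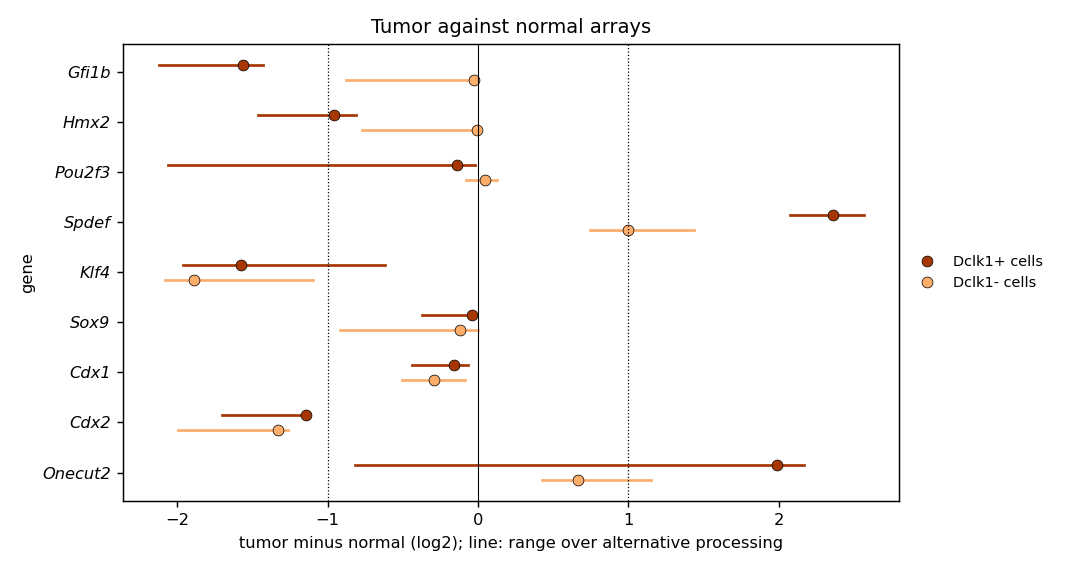
Log2 difference of tumor from normal arrays for the 9 factors in Dclk1+ cells (dark) and Dclk1- cells (light), with lines for the range over the alternative settings. Dotted lines mark 2-fold; Klf4 and Cdx2 lie left of the lower line in both populations, Spdef in Dclk1+ cells lies right of the upper line under every setting, and the Onecut2 line crosses 0.

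Intestinal genes linked to Cdx factors were counted beside them. In the tumor pair 1 of 11 was higher in Dclk1+ cells, Gucy2c, the guanylin receptor, by 1.09, and 4 were lower, Guca2a, the guanylin precursor, by -2.33. In the normal pair 1 was higher, Gucy2c by 1.61, and 6 lower, Gip by -5.50, Guca2a by -5.20 and Fabp2 by -4.19. From normal to tumor in Dclk1+ cells 1 of 11 was higher, Guca2a by 2.18, and 3 lower, among them Cdh17, an intestinal cadherin and known Cdx2 target, by -1.22. In Dclk1- cells 0 were higher and 6 lower, among them Gip by -4.64 and Lct by -2.66.

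Of the absorptive and intestinal identity factors, 1 of 22 was higher and 2 lower in Dclk1+ cells of the tumor pair, and 1 of 23 higher and 1 lower in the normal pair. Between tumor and normal, 1 of 22 was higher and 2 lower in Dclk1+ cells, and 3 of 23 higher and 3 lower in Dclk1- cells, the higher ones led by Hoxa5 (1.59) and Prdm16 (1.49). Creb3l3, a factor of lipid metabolism, was lower in Dclk1+ cells by -2.31 in tumor and -4.12 in normal, and Hnf4a, the nuclear receptor of enterocyte identity, was lower in tumor by -1.13 in Dclk1+ and -1.71 in Dclk1- cells. Hoxa5 was higher in Dclk1+ cells, by 1.01 in tumor and 1.19 in normal. Gata6 was lower in Dclk1+ tumor cells by -1.23, which turned to 0.94 with local background subtracted. In the Notch pathway 0 genes differed 2-fold on the main scale in any comparison, of 23 to 26 above background. With the authors' values, 7 of 23 were higher and 2 lower in the tumor pair, where 28.3% of all genes were called, and 7 of 26 higher and 0 lower in the normal pair, where 37.7% were. Between tumor and normal these values gave 4 of 26 higher and 9 lower in Dclk1+ cells and 2 of 25 higher and 6 lower in Dclk1- cells, where 39% and 42.2% of all genes were called.

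The change in the Dclk1+ to Dclk1- difference from normal to tumor reached 2-fold for 3 of 9 members, where 8.86% of all 13467 genes did, 4.43% in each direction: Spdef (1.37) and Onecut2 (1.33), more positive in tumor, and Gfi1b (-1.53), more negative in tumor. With local background subtracted Spdef fell to 0.64 and Onecut2 turned to -1.97, while Gfi1b was -1.41. Hmx2 fell just short of 2-fold, at -0.95, and passed it with median scaling (-1.26) or 75th percentile scaling (-1.24).

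The genes most like each member were found by the root mean square difference of gene-centred log2 values over the 4 samples, among 13456 genes. Nearest to Gfi1b were Kcnj16, Fam221a and Snrnp25, at 0.22 to 0.30. Nearest to Hmx2 were Fyb (0.11), Kcnj16 (0.23) and Plcb2 (0.35), of which Fyb and Plcb2 are in the tuft marker list. Wrap73 and Utp20 were nearest to both Spdef and Onecut2. Nearest to Klf4 was Fkbp2 (0.04), to Cdx2 Pex19 (0.05) and to Cdx1 Mllt11 (0.11). With local background subtracted, the Dclk1+ to Dclk1- tumor difference of Kcnj16 went from 3.83 to 0.62 and that of Mllt11 from 1.18 to 0.18. With 4 samples such likeness has little weight, and nothing is said of shared control.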

How the data were processed

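One array was read for each of 4 sorted samples. Per the file headers, the scanner files give the linear brightness of every spot and its surroundings as medians. The intensity table deposited by the authors has empty cells for dim probes; set against the scanner values, every column was linear in spot brightness after subtraction of a blank level. No source used here gives the tools or the array build. Labels name 1 sample per group, so differences have no replicate check.

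From the scanner values, spots were background corrected with normexp (offset 50, limma 3.58.1, R 4.3.3) and flagged spots dropped. The arrays were then quantile normalised, and log2 was taken last. These steps were tested on simulated data with 8-fold changes. Of the changed probes with a signal under 25 over the blank level, 29.1% were called at 2-fold, against 100% of brighter ones. Of 23473 probes, 63.3% to 70.9% were above background. Symbols or synonyms named 16631 probes. For several probes of a gene the brightest was used. The number of arrays limits the precision.

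Named genes are all members and, per list and direction, at most the 4 furthest past 2-fold, plus the 3 nearest patterns of each member that spans 1 log2 unit. The members and lists were chosen with earlier results of these data known. Alternatives changed the background correction, scaling, values, fold threshold, filter and probe rule.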

Additional observations from a re-analysis of the deposited data

Results flagged for a closer look

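For 3 factors above background in both tissues, the Dclk1+ to Dclk1- difference lay on opposite sides of 0 in tumor and normal. The difference between tissues was not tested, since each group is 1 array. Spdef was higher in Dclk1+ cells in tumor (0.73) and lower in normal (-0.63), a gap of 1.37 in log2, which was 0.64 with local background subtracted. Onecut2 was higher in tumor (0.93) and lower in normal (-0.40), a gap of 1.33; with local background subtracted the values were -0.89 and 1.07, so the gap turned to -1.97. Sox9 differed by 0.02 in tumor and -0.06 in normal, a gap of 0.08 between dim spots whose signs turned under other settings. Pou2f3 also had opposite signs, -0.06 in tumor and 0.13 in normal, but neither tumor array was above background.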

How the results depend on the processing

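No paired analysis was possible because each group has 1 array and no replicate numbers are shared, and for the same reason no replicate could be left out. Of 252 member differences under alternatives, 223 kept their side of 2-fold with no turned sign, values of 0 included. Also with no turned sign, 13 passed 2-fold and 3 no longer did. The sign turned in 13, all of Pou2f3, Sox9, Klf4 or Onecut2. Among them 1 had been past 2-fold: Onecut2 in Dclk1+ tumor against normal, -0.82 with local background subtracted. The same setting turned its Dclk1+ to Dclk1- difference to -0.89 in tumor and 1.07 in normal. The count of members apart in Dclk1+ against Dclk1- tumor was 5 with the authors' values (main 3), where 28.3% of all genes were called against 3.91%. In tumor against normal it was 3 with local background subtracted and 1 at a 4-fold threshold in Dclk1+ cells (main 5), and 4 and 0 in Dclk1- cells (main 2). At 4-fold 0 members changed their Dclk1+ to Dclk1- difference between tissues (main 3). Named list genes past 2-fold kept their direction under every setting run, except Gata6 in the tumor pair, and Ascl2, Cbfa2t3, Cdh17, Galnt12, Hoxa5 and Klf6 fell under 2-fold in at least 1 comparison with local background subtracted. The cause was not tested beyond the fewer genes that a higher threshold can call. In Dclk1- cells plain subtraction gave 1 higher and 2 lower, against 0 and 2. The authors' values shifted the median of all genes by 0.33, 0.24, -0.37 and -0.45, so their folds are relative to that. Signal over background limits Pou2f3 and Sox9, whose spots lay near the blank level.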

Other observations

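Among paralogs of the members, Atoh8 was higher in Dclk1+ than in Dclk1- normal cells (log2 difference 1.09) and Klf6 lower in Dclk1+ cells in both tissues (-1.27 in each). Neurod1, an enteroendocrine lineage factor, had an intensity of 8.42 in Dclk1+ normal, 349 in Dclk1- normal and 16.0 in Dclk1- tumor, so it was lower in Dclk1+ than in Dclk1- normal cells (-2.49) and lower in Dclk1- tumor than in Dclk1- normal cells (-2.27).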
